A study of Mus musculus with 6 samples.

Results

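The secreted Wnt inhibitors described here were 8 genes, Sfrp1, Sfrp2, Sfrp4, Sfrp5, Frzb, Wif1, Dkk2 and Dkk3, of the 33696 genes counted in single cells of mouse Achilles tendon. They were taken by gene symbol, each symbol matched 1 gene, and all 8 passed the minimum mean of 1 UMI per 1000000 (CPM) over the 6 libraries. The study asked how cells with a history of Gli1 expression behave after tendon injury that leads to heterotopic bone. All mice, controls included, were Gli1-CreERT2; Ai9 animals given tamoxifen, so that cells in which the Gli1 promoter drove the inducible Cre recombinase, and their progeny, carried the Ai9 fluorescent reporter. Cells were sorted into Gli1+ and Gli1- fractions from uninjured tendons and from tendons collected 7 and 21 days post injury (dpi) by tenotomy, with 8 mice at each time point and 24 in all. Each of the 6 conditions was 1 library with no map from cells to mice, so no pair of conditions could be tested on its own, and no test was made. The 95% intervals given here hold counting error alone, and the spread between mice is unknown. The age of the mice was not given in the sources used here, and the sort follows past Gli1 expression. In mesenchymal cells Gli1 mRNA itself stood at 13.4, 2.16 and 4.21 CPM in uninjured, 7 dpi and 21 dpi Gli1+ cells, and at 8.98, 2.59 and 4.61 CPM in their Gli1- counterparts, the order of times kept from here on.

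Wnt proteins bind Frizzled receptors together with the co-receptors Lrp5 and Lrp6 and stabilize beta-catenin, and secreted inhibitors limit this at the cell surface. The secreted Frizzled-related proteins (the Sfrp genes and Frzb) carry a Frizzled-like cysteine-rich domain, and Wif1 carries its own Wnt-binding domain. Both bind Wnt ligands outside the cell. The Dickkopf proteins act otherwise, since Dkk2 binds the Lrp co-receptors, whereas Dkk3 is a divergent family member whose action on Wnt signaling is not settled. In skeletal tissue Frzb is known from articular cartilage, and Wnt signaling takes part in the formation of bone and cartilage.

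On build GRCm38, the GENCODE M21 annotation places these protein-coding genes on 7 chromosomes. Sfrp2 lies at chr3:83766321-83774316 and Dkk2 at chr3:132085292-132180304, both on the plus strand. Wif1 lies at chr10:121033960-121100650 on the plus strand. Sfrp1 lies at chr8:23411502-23449632 and Sfrp4 at chr13:19623104-19632994, both on the plus strand. On the minus strand lie Sfrp5 at chr19:42197971-42202252, Frzb at chr2:80411970-80447625 and Dkk3 at chr7:112116017-112159057. RefSeq promoter windows, 250 bases before to 50 bases after the start on GRCm38.p6, were at hand for 5 of the 8 genes, Sfrp2, Sfrp5, Frzb, Wif1 and Dkk2. The upstream bases of 3 of these are shown, because the genes follow unlike courses after injury: Dkk2 was highest in uninjured tendon, Wif1 was lowest at 7 dpi, and Sfrp2 was high at both times after injury. Capitals mark TATAAA and GGGCGG on either strand.
Dkk2 (chr3:132085042-132085291, plus strand): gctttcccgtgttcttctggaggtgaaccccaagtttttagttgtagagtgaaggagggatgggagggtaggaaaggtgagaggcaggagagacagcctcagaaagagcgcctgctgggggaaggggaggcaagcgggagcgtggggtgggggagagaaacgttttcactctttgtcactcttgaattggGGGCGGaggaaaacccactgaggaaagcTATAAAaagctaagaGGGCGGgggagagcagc
Wif1 (chr10:121033754-121033959, plus strand): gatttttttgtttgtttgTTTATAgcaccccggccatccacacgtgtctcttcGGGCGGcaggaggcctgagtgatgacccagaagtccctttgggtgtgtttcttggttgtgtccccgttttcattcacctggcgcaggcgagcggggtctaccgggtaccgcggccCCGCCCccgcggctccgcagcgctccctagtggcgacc
Sfrp2 (chr3:83766071-83766320, plus strand): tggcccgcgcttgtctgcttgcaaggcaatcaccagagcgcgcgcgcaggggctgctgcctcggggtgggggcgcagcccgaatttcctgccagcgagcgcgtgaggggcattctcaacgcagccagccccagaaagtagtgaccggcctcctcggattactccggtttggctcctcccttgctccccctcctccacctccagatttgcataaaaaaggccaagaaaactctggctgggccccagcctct
Dkk2 and Wif1 held both motifs in their windows and Sfrp2 held neither. Of all 32851 promoter windows, 13.6% held TATAAA and 35.7% held GGGCGG. The TCF/LEF letters ATCAAAG and TTCAAAG, the site letters of the factors that act with beta-catenin, were in none of the 5 windows and in 8.65% of all windows on either strand. The Gli site letters GACCACCCA were likewise in none of the 5 and in 0.253% of all. A match is a run of letters only, and no binding was measured.

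The authors deposited UMI counts, and the libraries held between 72196599 and 135202247 UMIs in all. After filtering and removal of likely doublets, 7057 to 10882 cells per library were kept, with a median of 4297 to 9775 UMIs per cell. Mesenchymal cells were those of clusters that matched the tendon stem cell, tenocyte or chondrocyte marker lists, or that matched no list and had Pdgfra at 100 CPM or more. A match counted also where the name was withheld, as for a Gli1- cluster that matched the tenocyte list with Pdgfra at 47.5 CPM. Mesenchymal cells made up 2466, 7005 and 8062 Gli1+ cells and 5770, 7994 and 7500 Gli1- cells. The Gli1+ library of uninjured tendon stood apart, since only 34.9% of its cells were mesenchymal and 2932 were T or lymphoid-like, a class with no cells in the other 5 libraries. In its mesenchymal cells the leukocyte gene Ptprc stood at 16.2 CPM, against 0.0838 CPM or less elsewhere. Keratin RNA marked another library: Krt14, an epidermal keratin, had a UMI in 98.8% of Gli1+ mesenchymal cells at 7 dpi (683 CPM), in 46.8% at 21 dpi and in 6.37% in uninjured tendon. Cntn5 RNA was at 167 to 490 CPM in mesenchymal cells of both 7 dpi libraries and the uninjured Gli1- library and at no more than 3.88 CPM in the other 3, and its part in the results was not tested. Sex differed as well, although the labels state an equal distribution. Cells with Xist and no Y-linked UMI made up 68.7%, 0.0108% and 92.7% of kept Gli1+ cells and 0%, 0.0101% and 90.5% of kept Gli1- cells. Time point and sex therefore cannot be told apart for 21 dpi against either earlier time in the Gli1- sort and for 21 dpi against 7 dpi in the Gli1+ sort, and the uninjured sorts differ in sex as well. The uninjured Gli1+ and Gli1- fractions thus cannot hold the same mice in like parts. Pairs of libraries shared 27 to 75 barcodes, at most 0.534% of a library.

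Together the 8 inhibitors took more of the mesenchymal RNA after injury in both sorts. Their summed level was 867, 1429 and 1584 CPM in Gli1+ cells at uninjured, 7 dpi and 21 dpi, and 289, 1852 and 1649 CPM in Gli1- cells. Sfrp4 (41.2%) and Dkk2 (17.1%) took the largest parts of the sum in uninjured Gli1+ cells, and Dkk2 (29.5%), Sfrp4 (27.2%) and Sfrp1 (26.6%) in uninjured Gli1- cells. At 7 dpi Sfrp1 led with 45.1% in Gli1+ and 42.0% in Gli1- cells, followed by Sfrp2 with 33.9% and 38.7%. At 21 dpi the sum was split among Sfrp2 (34.6% and 28.8%), Sfrp1 (24.2% and 26.8%) and Sfrp4 (24.2% and 30.3%), and Dkk3 took 11.3% and 9.54%. Levels of different genes are set side by side as 3 prime UMI counts, which record 1 tag per molecule whatever the length of the transcript. How evenly the 8 genes were captured and assigned is not known here, so these parts are parts of the UMIs.

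**Figure D1:**
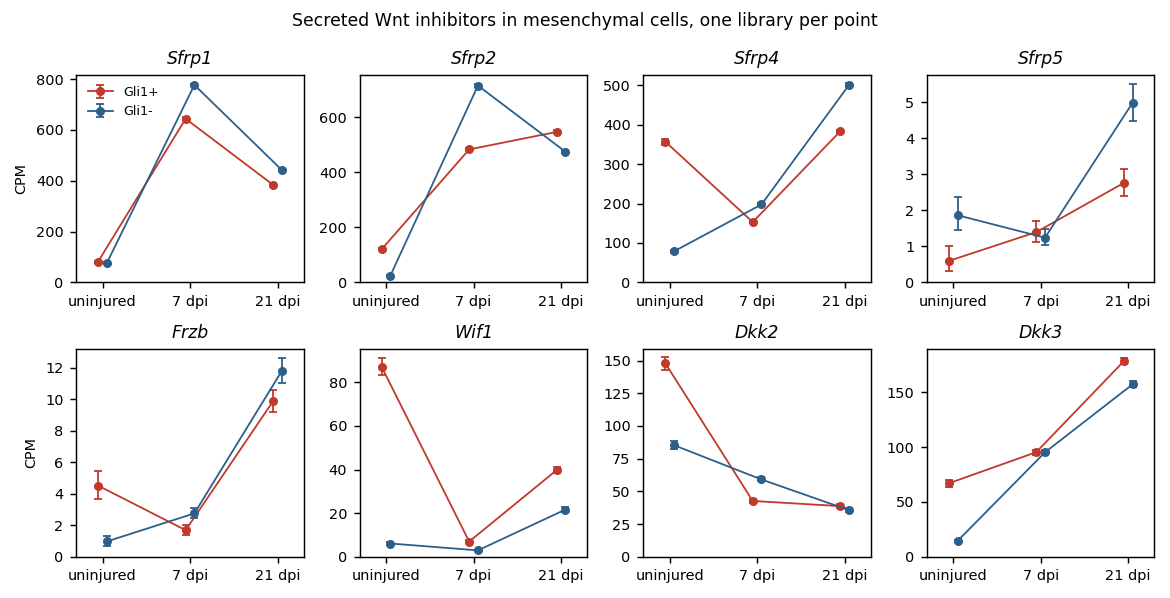
Level of each inhibitor in the mesenchymal cells of every library, in CPM on a linear axis that starts at 0, with time on the horizontal axis, Gli1+ in red and Gli1- in blue. Each point is 1 library and each bar an exact Poisson 95% interval of counting error; Sfrp1 peaks at 7 dpi (644 and 777 CPM) and Dkk2 is highest in uninjured cells (148 and 85.3 CPM).

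Sfrp1 was the inhibitor of 7 dpi cells in both sorts. It stood at 82.0, 644 and 384 CPM in Gli1+ mesenchymal cells and at 76.9, 777 and 442 CPM in Gli1- cells at uninjured, 7 dpi and 21 dpi. The uninjured libraries of both sorts were the lowest, and their intervals overlapped. Its log2 ratio of 7 dpi over uninjured cells was 2.97 (2.91 to 3.04) for Gli1+ and 3.34 (3.28 to 3.39) for Gli1- cells, and of 21 dpi over 7 dpi cells -0.75 and -0.81. Sfrp2, a Frizzled-related protein known from fibroblasts of many tissues, came next. Its levels were 121, 484 and 548 CPM in the Gli1+ sort, with 25.0, 716 and 475 CPM in the Gli1- sort. The 7 dpi ratio over uninjured was thus 2.0 (1.95 to 2.06) for Gli1+ and 4.84 (4.74 to 4.93) for Gli1- cells, the highest of any member in any time comparison. Between 7 and 21 dpi Sfrp2 went opposite ways, with log2 ratios of 0.18 (0.16 to 0.20) for Gli1+ and -0.59 (-0.61 to -0.57) for Gli1- cells, neither past 2-fold.

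Sfrp4 was the most abundant inhibitor of uninjured Gli1+ cells and of 21 dpi Gli1- cells. It measured 357, 153 and 383 CPM in Gli1+ cells, against 78.8, 198 and 500.3 CPM in Gli1- ones. Gli1+ cells therefore had their lowest level at 7 dpi, with a log2 ratio over uninjured of -1.22 (-1.26 to -1.18), and Gli1- cells had theirs in uninjured tendon, with 1.33 (1.27 to 1.38). The ratio of 21 over 7 dpi was nearly alike, 1.32 and 1.34. In Gli1+ stem cell-like clusters, Sfrp4 was at 563 CPM in uninjured cells of one and at 433 CPM in another, with 2065 of its 2081 cells from 7 dpi. Stem cell-like cells were 1408 of 2466 uninjured and 2086 of 7005 7 dpi Gli1+ mesenchymal cells. Frzb, the Frizzled-related protein of cartilage, was scarce throughout, at 4.52 (3.70 to 5.47), 1.69 (1.40 to 2.02) and 9.89 (9.21 to 10.6) CPM in Gli1+ cells. In Gli1- cells it stood at 0.973 (0.682 to 1.35), 2.76 (2.44 to 3.1) and 11.8 (11.1 to 12.6) CPM. Both sorts were highest at 21 dpi, with ratios over 7 dpi of 2.55 (2.27 to 2.84) and 2.10 (1.90 to 2.3). Sfrp5 was scarce in mesenchymal cells. It did not exceed 4.98 CPM in any library, and its 14 UMIs in uninjured Gli1+ cells gave 0.597 CPM with an interval of 0.326 to 1.0. Its highest mesenchymal level in the Gli1- sort was at 21 dpi, but over all kept cells it was highest in uninjured tendon, at 19.3 CPM, with 4.30 CPM at 7 dpi and 7.01 CPM at 21 dpi.

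Dkk2 was highest in uninjured cells of both sorts, and Wif1 in those of the Gli1+ sort. Wif1, which binds Wnt ligands, was at 87.1, 6.97 and 39.8 CPM for Gli1+ and 6.08, 2.93 and 21.7 CPM for Gli1- cells. The lowest level was at 7 dpi in both sorts, and the log2 ratio over uninjured was -3.64 (-3.79 to -3.50) for Gli1+ and -1.05 (-1.31 to -0.80) for Gli1- cells. At 21 dpi it lay below the uninjured level in Gli1+ cells (-1.13) and above it in Gli1- cells (1.83). The lower 21 dpi value of the Gli1+ sort and the lower 7 dpi value of the Gli1- sort did not hold when tenocyte-like cells were left out. An unnamed Gli1- cluster that matched the tenocyte list was left out with them. Without both, Wif1 was at 19.1, 4.32 and 49.7 CPM in the Gli1+ sort, where the ratio of 21 dpi over uninjured turned to 1.38, and at 1.71, 1.79 and 46.8 CPM in the Gli1- sort, where that of 7 dpi turned to 0.0653. The Gli1+ cells left at 21 dpi include 351 chondrocyte-like cells, against 32 in uninjured tendon, whose cluster held Wif1 at 322 CPM. In the stem cell-like Gli1+ cluster present at both times Wif1 went from 11.7 to 5.02 CPM, so the turn is not a rise in every type. Dkk2, the ligand of the Lrp co-receptors, stood at 148, 42.7 and 38.7 CPM in the Gli1+ sort, with 85.3, 59.1 and 35.7 CPM in the Gli1- sort. It was the only one of the 8 with its highest level in uninjured and its lowest in 21 dpi cells of both sorts. The ratio of 21 dpi over uninjured was -1.93 (-2.01 to -1.86) for Gli1+ and -1.26 (-1.33 to -1.18) for Gli1- cells. That of 7 dpi over uninjured was -1.79 (-1.87 to -1.72) for Gli1+ cells. For Gli1- cells it was -0.53 (-0.59 to -0.47), within 2-fold. Dkk3 showed the reverse order. It measured 67.0, 95.5 and 178 CPM for Gli1+ and 14.4, 95.3 and 157 CPM for Gli1- cells, with ratios of 21 dpi over uninjured of 1.41 (1.34 to 1.49) and 3.45 (3.32 to 3.58). The 95% interval of a level reached at most 8.86% to either side for Sfrp1, Sfrp2, Sfrp4, Dkk2 and Dkk3, 14% for Wif1, 38.4% for Frzb and 67.8% for Sfrp5.

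**Figure D2:**
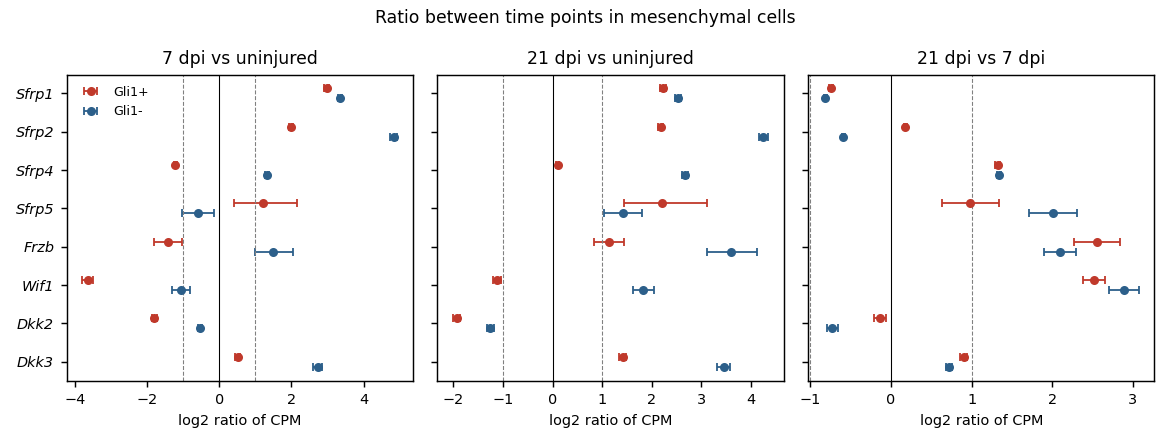
Log2 ratio of CPM between time points in mesenchymal cells for each inhibitor, Gli1+ in red and Gli1- in blue. Bars are 95% intervals of counting error and dashed lines mark 2-fold; Sfrp4 and Frzb lie on opposite sides of 0 in the 2 sorts at 7 dpi, as Wif1 does at 21 dpi against uninjured.

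Counted over the 8 genes, a difference of at least 2-fold was common between uninjured and injured tendon. These genes, and the wider Wnt list read below, were chosen with earlier results of these data known. Counts above the shares of all genes are therefore not a test of them. At 7 dpi against uninjured, 3 members were higher in Gli1+ cells (Sfrp1, Sfrp2 and Sfrp5) and 4 were lower (Sfrp4, Frzb, Wif1 and Dkk2), where 11.9% of all 14307 genes tested were higher and 18.8% lower. Here Sfrp5 rested on 14 and 100 UMIs, and its ratio was -0.44 without cell filters. In Gli1- cells 5 were higher and only Wif1 was lower, against 13.2% and 13.8% of all genes. At 21 dpi against uninjured, 5 members were higher and 2 (Wif1 and Dkk2) lower in Gli1+ cells, beside 7.25% and 17.6% of all genes, and 7 were higher and Dkk2 alone lower in Gli1- cells, beside 11.9% and 14.1%. The 7 include Sfrp5 (1.42), whose ratio was between -1.70 and -1.08 under 5 other choices of cells. From 7 to 21 dpi 3 members were higher in Gli1+ cells (Sfrp4, Frzb and Wif1) and 4 in Gli1- cells (the same 3 and Sfrp5), with none lower, where 4.02% and 4.52% of all genes were higher and 7.79% and 5.21% lower. The uninjured libraries and the 7 dpi libraries each served in more than 1 of these comparisons. The median log2 ratio of the members against uninjured was -0.36 at 7 dpi and 1.27 at 21 dpi in Gli1+ cells and 1.41 and 2.60 in Gli1- cells, and that of all genes tested lay at -0.18, -0.30, -0.06 and -0.10 in the same order. Scaling by TMM factors would add 0.30 (7 dpi) and 0.46 (21 dpi) to all ratios over uninjured Gli1+ cells, and 0.10 and 0.18 to those over uninjured Gli1- cells, which put 3 calls within 2-fold, those of Wif1 in Gli1+ cells at 21 dpi, Sfrp4 in Gli1+ cells at 7 dpi and Wif1 in Gli1- cells at 7 dpi.

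Cells of 1 sex, read from Xist and Y-linked genes, could be compared in part. Among Y-linked cells, Sfrp1 was at 73.3 and 664 CPM in uninjured and 7 dpi Gli1+ cells and at 76.3 and 788 CPM in Gli1- cells. Wif1 was at 108 and 6.01 CPM in the former pair and at 3.73 and 2.28 CPM in the latter. The ratio of Wif1 in these Gli1- cells was under 2-fold. Among Xist cells, which could be compared between uninjured and 21 dpi tendon in the Gli1+ sort only, Dkk2 was at 152 and 38.9 CPM, Sfrp2 at 107 and 553 CPM and Wif1 at 68.2 and 39.7 CPM, the last again under 2-fold.

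More members were past 2-fold between the sorts in uninjured tendon than after injury, in libraries that also differed in sex. In uninjured tendon 5 of the 8 inhibitors were at least 2-fold higher in Gli1+ than in Gli1- mesenchymal cells, where 15.8% of all genes were past 2-fold in either direction. Sfrp5 was past 2-fold lower on 14 and 69 UMIs, but its share in these Gli1- cells did not exceed that of endothelial-like cells, and no difference between the sorts is read from it. Among Y-linked cells alone, Wif1 was at 108 CPM in uninjured Gli1+ and 3.73 CPM in uninjured Gli1- cells. The log2 ratio was 3.84 (3.64 to 4.05) for Wif1, 2.27 for Sfrp2, 2.22 for Dkk3 and Frzb and 2.18 for Sfrp4. Dkk2 (0.80) and Sfrp1 (0.09, 0.01 to 0.18) were within 2-fold. At 7 dpi only Wif1 was past 2-fold, at 1.25 (1.04 to 1.46), beside 3.54% of all genes, and Dkk3 was at 0.00 (-0.04 to 0.05). At 21 dpi none was, beside 2.05% of all genes, and the member farthest from 0 was Wif1 at 0.88 (0.79 to 0.96). The makeup of the uninjured fractions differed too: 735 of 2466 Gli1+ mesenchymal cells were tenocyte-like, against 63 of 5770 Gli1- cells, and a further 190 of the latter lay in a cluster that matched the tenocyte list but stayed unnamed. Without tenocyte-like cells and that cluster the log2 ratio of Wif1 in uninjured tendon was 3.48, and Wif1 at 21 dpi was at 0.09.

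The inhibitors differed in the cell types that held most of their UMIs, although several shared a type. Types were named from fixed marker lists that hold none of the 8 genes, and the 8 genes were also left out of clustering. Of the UMIs of Sfrp4 and Dkk2 in uninjured Gli1+ tendon, 91.8% and 89.8% came from tendon stem cell-like cells, matched by markers such as Ly6a, Pi16 and Tppp3. Their level there was 558 CPM for Sfrp4 and 226 CPM for Dkk2, against 70.0 and 37.8 CPM in tenocyte-like cells, which are matched by Scx, Tnmd and Fmod. Wif1 was the inverse, at 259 CPM in tenocyte-like and 11.6 CPM in stem cell-like cells. Tenocyte-like cells held 79.2% of the Wif1 UMIs of that library. In uninjured Gli1- tendon the order of Sfrp4 and Dkk2 was the other way. Sfrp4 was at 89.5 CPM in stem cell-like and 473 CPM in the 63 tenocyte-like cells, and Dkk2 at 72.1 and 112 CPM. The unnamed Gli1- cluster that matched the tenocyte list was lower, at 15.9 and 20.3 CPM. Of the 5770 uninjured Gli1- mesenchymal cells, 4529 were unnamed.

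At 7 dpi Sfrp1 and Sfrp2 were strongest in clusters that hardly existed before injury. In Gli1+ cells these were an unnamed cluster led by Crabp1, Tnn and Tnc, the last 2 of which encode tenascins of wound matrix, with 3839 of its 3917 cells from 7 dpi, and a stem cell-like cluster with 2065 of 2081 cells from 7 dpi. Over all libraries of the sort, Sfrp1 stood at 685 and 674 CPM in these 2 clusters and Sfrp2 at 447 and 722 CPM. The matching Gli1- clusters, both unnamed, were led by Crabp1 and Tnn and by Klk1 and Pgr, and held Sfrp1 at 851 and 718 CPM and Sfrp2 at 665 and 906 CPM. Tenocyte-like Gli1+ cells of 7 dpi had less, with Sfrp1 at 78.9 CPM and Sfrp2 at 87.7 CPM. Wif1 was at 51.9 CPM in them, and 713 of these 732 cells lay in a cluster that held no uninjured cell. Sfrp1 and Sfrp2 were also higher at 7 dpi in Gli1- clusters with at least 50 uninjured cells, as given below.

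At 21 dpi the sites parted further. Sfrp2 was at 886 CPM in stem cell-like Gli1+ cells, where the cluster led by Cyp2f2, C4b and Pi16 reached 944 CPM over all its cells. Sfrp4 was at 538 CPM in the stem cell-like and 487 CPM in the tenocyte-like cells of that library, and at 699 CPM in the 4639 tenocyte-like Gli1- cells. The Gli1- cluster of these cells was also led by Sema3e and Ccn3, leading genes of the stem cell-like cluster just named. Its Pdgfra was at 202 CPM, against 85.8 CPM in the largest tenocyte-like Gli1+ cluster. Tenocyte-like levels of the 2 sorts are therefore not levels of like cells. Dkk3 was at 217 CPM in tenocyte-like Gli1+ cells and 171 CPM in tenocyte-like Gli1- cells. Its highest cluster in either sort was an unnamed one led by Saa3, Grem1 and matrix metalloproteinase genes, at 235 CPM in the Gli1+ sort and 181 CPM in the Gli1- sort.

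Chondrocyte-like cells, led by Col2a1 and the Col9 genes and in the Gli1+ sort also by the bone genes Bglap and Ibsp, carried Frzb, Wif1 and some Sfrp5. The 351 such Gli1+ cells of 21 dpi had Frzb at 107 CPM, Wif1 at 373 CPM and Sfrp5 at 21.4 CPM, and the 414 Gli1- cells had 128, 215 and 65.6 CPM. They were few, yet they held 65.6% and 72.3% of all Frzb UMIs and 55.9% and 66.8% of all Wif1 UMIs of the 21 dpi libraries. Uninjured and 7 dpi libraries had 18 to 45 cells of this type each, fewer than the 50 needed for a level. A second site of Wif1 was an unnamed Gli1+ cluster of 280 cells led by Gpc5, Nrg3 and Dcc, 213 of them from 21 dpi, with Wif1 at 597 CPM and Dkk2 at 431 CPM, the highest cluster of either gene in the sort.

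Sfrp5 lay mainly outside the mesenchyme in uninjured and 7 dpi Gli1- tendon, where mesenchymal cells held 69 of 1035 and 123 of 464 of its UMIs. At 21 dpi they held 378 of 688 in the Gli1- sort, and in the Gli1+ sort they held 14 of 31, 100 of 117 and 221 of 239. In Gli1- cells its top cluster was an unnamed one of 106 cells with Krt19, Cldn1 and Wnt6 among its leading genes, at 1744 (1631 to 1864) CPM, where Sfrp5 was itself the leading gene. This cluster counts as non-mesenchymal because its Pdgfra, at 81.7 CPM, lay under the limit of 100 CPM, so the placement of Sfrp5 in the Gli1- sort rests on that limit. Schwann-like cells, the glia of peripheral nerve, followed with 401 CPM in 1 cluster of 213 cells. In uninjured Gli1- tendon 74.6% of Sfrp5 UMIs came from unnamed non-mesenchymal cells and 15.5% from Schwann-like cells. The unnamed cells include a cluster of 365 cells, with 23.2% of the UMIs of that library, that matched the Schwann list best but was led by more markers of another class. Within Gli1+ mesenchyme, Sfrp5 was highest in an unnamed cluster of 232 cells led by Luzp2, Gatm and Msln, with 96.0 CPM and with Pdgfra at 296 CPM. Frzb was also present in uninjured Schwann-like Gli1- cells, at 50.8 CPM.

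**Figure D3:**
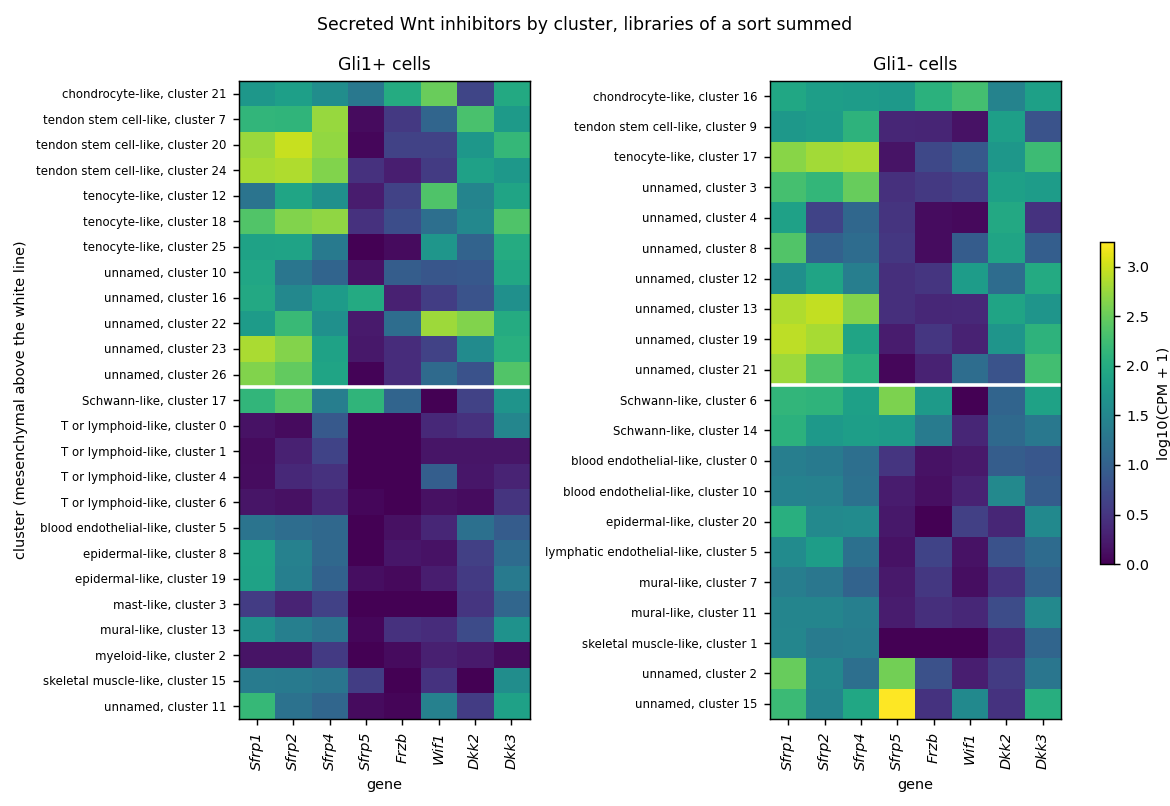
Level of each inhibitor (horizontal) in every cluster of at least 50 cells (vertical), with the 3 libraries of a sort summed and color giving log10(CPM + 1); mesenchymal clusters lie above the white line. Sfrp5 is highest in an unnamed Gli1- cluster (1744 CPM), Frzb in the chondrocyte-like clusters, and Wif1 in the Gli1+ cluster led by Gpc5 (597 CPM).

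Within single clusters Dkk2 was lower at 21 dpi than in uninjured tendon in most cases. Clusters with at least 50 cells in both libraries were compared, and only genes with at least 20 UMIs in the pair of libraries are counted here. Dkk2 was at least 2-fold lower at 21 dpi than in uninjured tendon in 3 of 3 such Gli1+ clusters and in 5 of 7 Gli1- clusters. Some of these rested on few Dkk2 UMIs at 21 dpi, 6 in a Gli1+ cluster and 3, 4 and 10 in Gli1- clusters. At 7 dpi Dkk2 was past 2-fold lower in 1 and higher in 1 of 7 Gli1- clusters, with ratios from -2.69 to 1.36. In the stem cell-like Gli1+ cluster of 1387 uninjured and 528 21 dpi cells, Dkk2 went from 227 to 93.6 CPM, a log2 ratio of -1.28 (-1.47 to -1.10). Wif1 was at least 2-fold lower in 3 of 3 Gli1+ clusters, and in the tenocyte-like cluster of 684 and 354 cells it went from 265 to 96.5 CPM. In the Gli1- sort Wif1 at 21 dpi was past 2-fold higher in 1 and lower in 1 of 3 clusters (-4.40 to 3.05). At 7 dpi Wif1 was past 2-fold higher in 2 and lower in 2 of 5 Gli1- clusters (-3.10 to 6.92). A cluster with 42 UMIs at 7 dpi counts as lower there only because its 0 uninjured UMIs were set to the floor of 3. A single Gli1+ cluster, of 235 uninjured and 171 7 dpi cells, allowed the 7 dpi comparison, and Sfrp4 was higher in it at 7 dpi (2.68, 1.30 to 4.21, on 7 and 15 UMIs), unlike in all mesenchymal cells. Dkk2, under the minimum with 2 and 14 UMIs, went from 1.26 to 26.4 CPM in it. That log2 ratio of 4.39 (2.26 to 7.57) was also unlike the one in all mesenchymal cells. Sfrp1 was at 0.81 (0.33 to 1.27) in this cluster, and Sfrp2 at 3.64 (2.32 to 5.21) on 6 and 25 UMIs. In Gli1- cells Sfrp1, Sfrp2 and Dkk3 were each past 2-fold higher at 7 dpi in 6 of 7 clusters, and Sfrp4 in 5 of 7. None of these genes was past 2-fold lower in any of the 7.

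At 21 dpi against uninjured tendon, Sfrp2 behaved otherwise than Dkk2. In Gli1+ cells it was past 2-fold in none of 3 clusters, from -0.72 to 0.31 on the log2 scale. The whole mesenchyme was at 2.18. These 3 held 528, 354 and 2122 of the 8062 Gli1+ mesenchymal cells of 21 dpi, and the last held 51 uninjured cells. The stem cell-like cluster led by Cyp2f2, with Sfrp2 at 944 CPM, had 3312 cells from 21 dpi and 21 uninjured. It could not be compared, so these ratios do not cover the cluster with the highest Sfrp2. A further Gli1+ cluster, of 235 and 76 cells, fell under the minimum with 6 and 11 UMIs of Sfrp2 and was at 3.75 (2.19 to 5.47). In the stem cell-like cluster of 1387 uninjured and 528 21 dpi cells, Sfrp2 was at 140 CPM before and 100.02 CPM at 21 dpi. In Gli1- cells it was higher in 6 of 6 clusters, with ratios from 1.37 to 4.45. These include a cluster of 2508 uninjured and 80 21 dpi cells, with Sfrp2 at 12.2 CPM on 3 UMIs at 21 dpi. That is below the 21.0 and 25.6 CPM of blood endothelial-like Gli1- clusters. The same cluster counts as higher for Sfrp4 on 6 UMIs and for Dkk3 on 3 UMIs at 21 dpi. Dkk3 was past 2-fold in none of 4 Gli1+ clusters (-0.22 to 0.38) and higher in 4 of 6 Gli1- clusters. Sfrp1 was higher in 1 of 4 Gli1+ and 5 of 7 Gli1- clusters, and lower in none. Sfrp4 was within 2-fold in all 3 Gli1+ clusters (0.01 to 0.53) and higher in 5 of 7 Gli1- clusters. Whether the sorts differ in this was not tested, and uninjured Gli1- cells were the shallowest, with a median of 5798 UMIs per mesenchymal cell against 8519 to 11512 elsewhere.

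**Figure D4:**
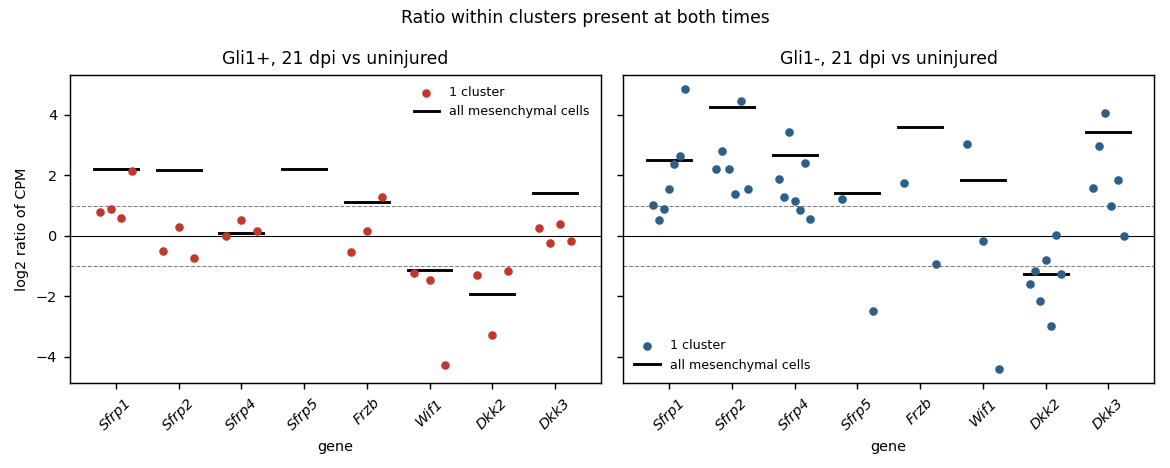
Log2 ratio of 21 dpi over uninjured CPM within each mesenchymal cluster that had at least 50 cells at both times and at least 20 UMIs (colored points, zero counts left out), beside the ratio over all mesenchymal cells (black bars). Sfrp2 in Gli1+ cells lies between -0.72 and 0.31 within clusters and at 2.18 over all cells, and Dkk2 lies below -1 in every Gli1+ cluster shown.

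Shares of cells with a UMI went against the levels in part, for Sfrp2 and Sfrp4 of the Gli1+ sort. With every cell thinned to 2000 UMIs, which left out 40 to 254 mesenchymal and 34 to 1133 blood endothelial-like cells per library, 42.3%, 71.7% and 73.8% of Gli1+ mesenchymal cells and 29.5%, 78.0% and 73.0% of Gli1- cells had a UMI of at least 1 of the 8 genes. At least 2 of the 8 were found in 16.5%, 37.4% and 38.8% of Gli1+ and in 5.14%, 44.5% and 40.2% of Gli1- cells. Sfrp1 had a UMI in 11%, 46.8% and 33.4% of thinned Gli1+ and in 13.3%, 53.2% and 37.2% of thinned Gli1- mesenchymal cells. Without thinning the 7 dpi shares were 72.1% and 81.4%. Blood endothelial-like cells, which line vessels, are used here as a rough level of the free RNA of a droplet library. They had Sfrp1 in 13.6% and 17.6% of thinned cells at 7 dpi, against 0.281% and 1.01% in uninjured tendon. Sfrp2 was in 9.32% and 12.7% of them at 7 dpi, with 31.9% and 38.7% in mesenchymal cells. The mesenchymal shares of both genes lay above those of endothelial-like cells at every time.

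The Sfrp2 share of Gli1+ cells at 7 dpi was 31.9% (30.8 to 33.0), above the 29.0% (28.0 to 30.1) of 21 dpi, which reverses its levels, so no order of these times is read from it. Sfrp4 had a UMI in 17.4%, 18.4% and 28.3% of thinned Gli1+ cells, so that its share at 7 dpi was no lower than in uninjured tendon although its level was, and no order is read from this share. The margin over endothelial-like cells at 21 dpi was narrower for Dkk2 than for Dkk3. Dkk2 was in 13.8%, 7.03% and 6.72% of thinned Gli1+ and 11.4%, 9.44% and 5.45% of thinned Gli1- mesenchymal cells. The endothelial-like shares at 21 dpi were 2.78% (1.12 to 5.64, exact binomial) and 3.22% (2.27 to 4.43). In the Gli1- sort Dkk2 stood at 8.13 and 32.9 CPM in blood endothelial-like clusters and at 2.03 and 4.73 CPM in mural-like ones. Sfrp1 was more alike there, at 23.5 and 26.4 CPM and at 23.4 and 28.8 CPM. The endothelial-like share of Dkk2 may thus hold RNA of these cells themselves, which was not tested. Dkk3 was in 25.9% and 24.1% of mesenchymal cells of 21 dpi, with 2.78% and 2.86% in endothelial-like cells. Sfrp5 was in 0.484% of uninjured Gli1- mesenchymal cells, no higher than the 0.587% of endothelial-like cells, and is read as background there. Median depths in mesenchymal cells were 5798 to 11512 UMIs and in endothelial-like cells 2222 to 5884 UMIs.

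**Figure D5:**
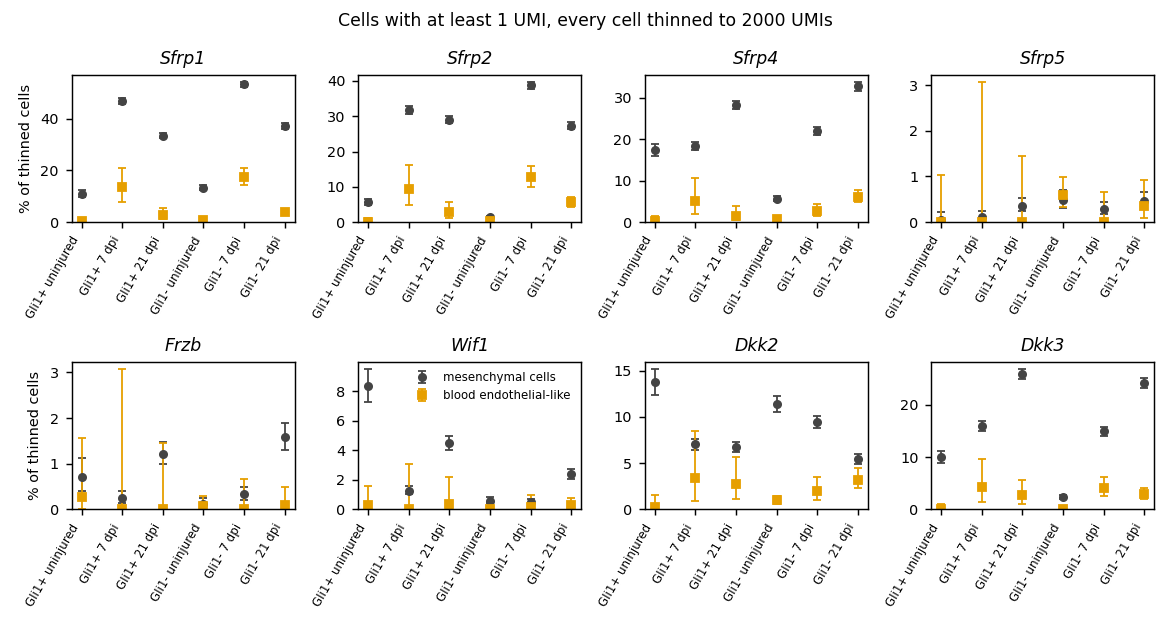
Percent of cells with at least 1 UMI of each inhibitor (vertical, starting at 0) in each library (horizontal), after thinning every cell to 2000 UMIs, for mesenchymal cells (grey circles) and blood endothelial-like cells (orange squares). Bars are exact binomial 95% intervals; the Sfrp1 share at 7 dpi is 46.8% and 53.2% in mesenchymal and 13.6% and 17.6% in endothelial-like cells.

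The wider Wnt pathway was read from a list of 75 other genes, of which 56 passed the minimum level. Of these, 8 were at least 2-fold higher and 16 lower at 7 dpi than in uninjured Gli1+ cells, and 12 higher and 13 lower at 21 dpi, where 11.9% and 18.8% of all genes were higher and lower at 7 dpi and 7.25% and 17.6% at 21 dpi. In Gli1- cells 17 were higher and 6 lower at 7 dpi, beside 13.2% and 13.8% of all genes, and 21 higher and 5 lower at 21 dpi, beside 11.9% and 14.1%. The median log2 ratio of the list against uninjured at 7 and 21 dpi was -0.10 and -0.30 for Gli1+ cells, against 0.22 and 0.50 for Gli1- cells. Between sorts in uninjured tendon, 22 were higher in Gli1+ cells and 2 lower, beside 15.8% of all genes in either direction, and at 21 dpi 3 were higher and none lower, beside 2.05%.

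Of 15 other inhibitors and their partners, 7 did not reach the minimum level. Dkk1, Dkk4 and Sost, which block the Lrp co-receptors, stayed at or below 0.422 CPM in every library. Igfbp4, an IGF-binding protein that also inhibits Wnt signaling, was the most abundant of this group, at 379, 1338 and 1522 CPM for Gli1+ and 695, 1844 and 1923 CPM for Gli1- cells. Tpbg, a membrane Wnt inhibitor, was at 12.2, 34.0 and 27.6 CPM in Gli1+ cells and at 8.87, 29.5 and 24.8 CPM in Gli1- cells. Apcdd1, an inhibitor at the cell membrane, was at 41.1, 11.3 and 13.3 CPM in the Gli1+ sort, with 15.5, 5.69 and 8.97 CPM in the Gli1- sort. Znrf3, which removes Wnt receptors, was past 2-fold lower at 7 dpi in Gli1+ cells. Kremen1, a Dickkopf co-receptor, held between 29.2 and 43.0 CPM throughout.

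Among ligands, 10 of 19 passed the minimum level. Wnt11 was lower after injury in both sorts, at 37.4, 9.93 and 7.57 CPM for Gli1+ and 75.9, 12.5 and 8.74 CPM for Gli1- cells. Wnt16 belonged to 21 dpi cells, at 2.94, 2.88 and 26.0 CPM and at 0.351, 3.04 and 19.7 CPM. Wnt2 and Wnt10b, at 20.7 and 12.5 CPM in uninjured Gli1+ cells, were at 3.87 and 1.17 CPM at 7 dpi. Wnt5b was at 13.2, 20.6 and 33.1 CPM in the Gli1+ sort, with 8.41, 20.4 and 33.8 CPM in the Gli1- sort. In Gli1+ cells Wnt9a was past 2-fold lower at both times after injury and Wnt5a higher at 21 dpi, and Wnt9a was also higher in uninjured Gli1+ than in Gli1- cells. Wnt4, expressed by epidermal-like cells of these libraries, was higher in Gli1+ than in Gli1- mesenchymal cells at 7 dpi (15.1 and 1.5 CPM), the library with Krt14 at 683 CPM. The part of such RNA in the Wnt4 value was not tested.

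Of 14 receptors tested, 1 was higher and 1 lower at 7 dpi than in uninjured Gli1+ cells, beside 11.9% and 18.8% of all genes, and 2 and 1 at 21 dpi, beside 7.25% and 17.6%. In Gli1- cells 4 and 1 were at 7 dpi, beside 13.2% and 13.8%, and 3 and 1 at 21 dpi, beside 11.9% and 14.1%. Of 6 R-spondins, which amplify Wnt signals, and Lgr receptors counted together, 2 were higher and 1 lower at 7 dpi and 3 and 0 at 21 dpi in Gli1+ cells, and 3 and then 5 were higher with none lower in Gli1- cells, to be read against those same shares of all genes. Fzd1 was at 18.5, 68.5 and 67.0 CPM in Gli1- cells and at 51.5, 70.8 and 73.7 CPM in Gli1+ cells. Fzd4 was lower after injury in the Gli1- sort, at 55.2, 27.3 and 20.7 CPM, and Lrp5, a co-receptor, in the Gli1+ sort, at 30.8, 10.4 and 13.6 CPM. Fzd2 and Ror2 were past 2-fold higher at 7 dpi in Gli1- cells, Fzd6 at 21 dpi in both sorts, and in uninjured tendon Fzd5 and Fzd8 were higher and Fzd4 lower in Gli1+ than in Gli1- cells. Rspo2 was at 2.86, 17.2 and 9.18 CPM for Gli1+ and 1.03, 25.5 and 14.5 CPM for Gli1- cells. Lgr5 was highest at 21 dpi in both sorts, at 26.3, 48.3 and 82.0 CPM and at 4.19, 31.6 and 59.4 CPM. Rspo3 was past 2-fold higher at both times after injury in Gli1- cells, and Rspo1 was higher at 21 than at 7 dpi in both sorts. Porcn and Wls, which serve Wnt secretion, were past 2-fold higher at 21 dpi than in uninjured Gli1- cells, and Porcn also at 7 dpi.

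Of 16 core and target genes tested, 6 were lower and 1 higher at 7 dpi in Gli1+ cells, with the same numbers at 21 dpi, beside 18.8% and 17.6% of all genes lower and 11.9% and 7.25% higher. In Gli1- cells 3 were higher and 1 lower at 7 dpi and 4 and 1 at 21 dpi, beside 13.2% and 11.9% higher and 13.8% and 14.1% lower. Axin2, a feedback target of beta-catenin, was at 35.6, 9.59 and 14.2 CPM in the Gli1+ sort, with 4.70, 4.93 and 8.63 CPM in the Gli1- sort. Nkd2, a Dishevelled-binding antagonist, was at 55.2, 13.3 and 19.1 CPM for Gli1+ and 12.1, 10.4 and 16.1 CPM for Gli1- cells. Lef1, the factor of the TCF/LEF letters above, was at 14.2 CPM in uninjured Gli1+ cells and at no more than 6.67 CPM elsewhere. It was also a leading gene of a T or lymphoid-like cluster of that same library, whose mesenchymal cells had Ptprc at 16.2 CPM, and the part of such RNA in its value was not tested. Ccn4, a matricellular target, was higher after injury in both sorts, at 23.6, 133 and 74.0 CPM in the Gli1+ sort, with 6.25, 122 and 69.2 CPM in the Gli1- sort. Tcf7l1, a TCF factor, was past 2-fold lower at both times in both sorts, Dvl1 at 7 dpi and Nkd1 at 21 dpi in Gli1+ cells, and Ccn5 was past 2-fold higher at both times in Gli1- cells.

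Likeness of pattern was described over 55 points, each a cell type in a library with at least 50 cells, among 9792 genes with a mean of 10 CPM or more. Points of 1 library share its depth and free RNA, so the correlations of log2(CPM + 1) are given without a test. Sfrp1 was most like Postn (Pearson r = 0.87), a matricellular gene of healing tissue, then Serf1 and Rcn1. Sfrp2 was most like Col1a1 (0.92), then Mmp2 and Col1a2, and Sfrp4 was most like the fibril-associated collagen Col14a1 (0.88), then Angptl1 and Sfrp2. Sfrp5 was most like the glial receptor Gpr37l1 (0.94), then Cmtm5 and Gjc3. Frzb was nearest to S100b (0.77), Col9a3 and Ncmap, genes of glia and cartilage. For Wif1 it was Atp6v0a4 (0.76), Chil1 and Col8a2, for Dkk2 Fbln2 (0.82), AW551984 and Nox4, and for Dkk3 Crabp2 (0.82), Gpc1 and Ephb2. Among the members themselves, Sfrp2 and Sfrp4 were the most alike (0.88) and Sfrp5 and Dkk2 the least (-0.05).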

How the data were processed

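Single-cell 3 prime libraries of 6 sorted fractions were analysed, 1 per condition. The authors deposited counts of UMIs per gene and barcode, without normalization. The matrix headers name Cell Ranger 9.0.0, and the submitters' processing notes name Cell Ranger 3.1.0, STAR and mm10, a difference that was not settled. The annotation release is not given in the sources used here, and 31961 of 33696 gene IDs were in GENCODE M21.

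Cells were kept with the filters of the methods (a minimum of 200 genes, 1000 UMIs and 0.7 for log10 genes over log10 UMIs, and a maximum of 5% for mitochondrial and for hemoglobin UMIs). Scrublet in scanpy 1.11.5 stood in for DoubletFinder, at 0.8% per 1000 cells. The 3 libraries of a sort were clustered together (2000 variable genes without members and markers, 30 principal components, 20 neighbors, Leiden resolution 0.5). A cluster took the name of a marker list with a mean log2 ratio of at least 1 and at least 3 raised markers, unless markers of another list led it. The rule for mesenchymal clusters was chosen after seeing the data. It included 1 Gli1- cluster that matched the tenocyte list but stayed unnamed, since a satellite cell marker, Chodl, was among its leading genes.

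Levels are summed UMIs per 1000000 (CPM) with exact Poisson 95% intervals, shares have exact binomial intervals, and log2 ratios have binomial intervals of the counts given their sum. A comparison was called at 2-fold among genes with a mean of at least 1 CPM, and a count of 0 was set to a floor of 3 counts. Levels of a type or cluster needed 50 cells in the library. The intervals were tried on simulated counts drawn with the counting error that they assume, which says nothing of the spread between mice. TMM factors came from edgeR 4.0.16, used for nothing else. No test between conditions was made. The members, the 75 other Wnt genes and the marker lists were chosen with earlier results of these data known. Named were all members, Wnt list genes past 2-fold at 10 CPM or more, and the 3 genes most like each member. Kremen1, Dkk1, Dkk4 and Sost were named in addition, after their values were seen. The alternatives tried were TMM scaling, other choices of cells, another resolution, per-cell means, cells of 1 sex and a 1.5-fold threshold.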

Additional observations from a re-analysis of the deposited data

Results flagged for a closer look

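In 5 cases a member lay above in one sort and below in the other under the same time comparison, with both intervals clear of 0. The share of all genes that do so was not counted, so no excess is read from the 5. Each value is the log2 ratio in Gli1+ cells minus that in Gli1- cells. Because each sort had 1 library per time, the difference was not tested. For 7 dpi against uninjured it was -2.55 for Sfrp4 (-1.22 and 1.33), -2.92 for Frzb (-1.42 and 1.5) and 1.81 for Sfrp5 (1.23 and -0.59). Frzb rested on 106 and 121 UMIs in Gli1+ and on 36 and 273 UMIs in Gli1- cells, and Sfrp5 on 14 and 100 UMIs and on 69 and 123 UMIs. The Sfrp5 level of uninjured Gli1- cells is read as background and its Gli1+ ratio was -0.44 without cell filters, so no difference between sorts is read from Sfrp5. For 21 dpi against uninjured the difference was -2.96 for Wif1 (-1.13 and 1.83). Without tenocyte-like cells and the unnamed Gli1- cluster that matched their list, these Wif1 ratios were 1.38 and 4.77, both above 0. The cells left hold 351 and 414 chondrocyte-like cells at 21 dpi, against 32 and 18 in uninjured tendon, and their part in these ratios was not tested. For 21 against 7 dpi the difference was 0.77 for Sfrp2 (0.18 and -0.59).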

How the results depend on the processing

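Over the alternatives, 428 of 436 values past 2-fold kept their direction and 398 stayed past 2-fold. The 8 reversals concerned 2 scarce or unevenly placed genes. For Sfrp5, the Gli1- ratio of 21 dpi over uninjured was -1.46 with all kept cells, -1.70 with a per-cell marker gate, -1.45 with that gate without keratins, -1.08 with the 6 libraries clustered together and -1.49 without cell filters. Its Gli1+ ratio of 7 dpi over uninjured was -0.44 without cell filters. For Wif1, leaving out tenocyte-like cells, with the unnamed Gli1- cluster that matched the tenocyte list, gave 1.38 for Gli1+ 21 dpi and 0.0653 for Gli1- 7 dpi, each over uninjured. This choice kept 5579 of 8062 Gli1+ and 2672 of 7500 Gli1- mesenchymal cells of 21 dpi. The gate without keratins and the omission of tenocyte-like cells were chosen after seeing the data.

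Of 102 counts of members past 2-fold, 87 stayed within 1.5 times the main count. From 7 to 21 dpi the Gli1+ count of 3 was 5 with TMM scaling and 6 at 1.5-fold, and the Gli1- count of 4 was 8 at 1.5-fold. Between sorts at 7 dpi the count of 1 was 2 with all kept cells, the gate without keratins, per-cell means and 1.5-fold. At 21 dpi the count of 0 was 1 with all kept cells, the gate without keratins, joint clustering, no cell filters, no doublet removal and per-cell means, 2 at 1.5-fold and 4 without tenocyte-like cells. The share of all genes called under each setting is not set beside these counts, so no excess is read from them. The gate with keratins left 49 cells at Gli1+ 7 dpi, so it gave no value for comparisons with that library, and cells of 1 sex gave values only where both libraries had 50. The sorts share time points, but a fit with sort and time as additive terms over the 6 libraries was not run.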
